A study of Mus musculus with 3 samples.

Results

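Keratin-associated protein genes, which carry the symbol Krtap in the mouse, were followed through open chromatin of hair follicle stem cells (HFSCs). The members were all protein-coding genes on the autosomes of the GRCm38 annotation whose symbol starts with Krtap, which gave 57 of 20807 autosomal protein-coding genes. The rule uses the symbol and the annotation and no measured value, although it was set with earlier results of these data known. Accessibility was mapped by Omni-ATAC-seq, which reads where Tn5 transposase can insert adapters into chromatin. The 3 libraries came from HFSCs sorted as CD34+CD49f+Sca-1- cells from dorsal skin of untreated 6-month-old mice whose follicles rested in telogen. The Msx2-WT group held 1 library from wild-type C57BL/6J mice matched for hair cycle stage, and the Msx2-KO group held 2 libraries from germline homozygous mutants with a neo cassette upstream of exon 2 of Msx2, a homeobox transcription factor gene. Each genotype had a labelled batch to itself, so that genotype and batch cannot be told apart. The labels do not say whether the libraries came from separate animals. The Msx2-KO lists name their peaks with the letters cKO, and replicate 1 of this group does so under a library number that is not its labelled one. Labels were followed throughout. Where 3 values stand together without names, they follow the order Msx2-WT, Msx2-KO replicate 1, Msx2-KO replicate 2. Genotypes were not tested against each other, since the Msx2-WT group has 1 library, and the values describe these libraries.

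Keratin-associated proteins fill the space between the keratin filaments of the hair shaft and cross-link them, mostly through disulfide bonds. They are made late in the differentiation of the cortex and cuticle of a growing hair, after the hair keratins, and fall into families rich in sulfur (cysteine) or in glycine and tyrosine. Stem cells of the resting bulge build no shaft. The genes are short, mostly without introns, and stand in a few tight clusters, one of them inside the cluster of type I keratin genes.

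The 57 genes belonged to 27 families by the number in their symbol and lay in 5 clusters. The cluster on chromosome 16 was the longest, with 24 genes over 960.5 kb (chr16:88610705-89571183). On chromosome 11, 23 genes covered 443.9 kb (chr11:99550130-99993994) between the hair keratin genes Krt40 and Krt33a. Chromosome 7 held 5 genes of the ultra-high sulfur family 5 over 130.1 kb (chr7:142174535-142304594), chromosome 10 held 3 genes over 116.7 kb (chr10:77720599-77837252), and chromosome 1 held 2 genes over 20.4 kb (chr1:83041524-83061921). Neighbouring start sites were a median of 21.36 kb apart, and the median gene was 892 bases long.

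The lists deposited for the libraries hold no read totals, so depth was read from the tag numbers solved at the peak summits. The commonest background was 1.74, 0.476 and 0.790 tags per counting window, which made the Msx2-WT library 3.65 times as deep as the first knockout library and 2.20 times as deep as the second. A summit had to pass a q-value of 0.01, which needed at least 9, 5 and 6 tags in these libraries and left 33654, 19450 and 41091 summits. HFSC markers had a promoter peak for 9, 8 and 10 of 11 genes, against 48.5, 38.8 and 54.8% of all autosomal protein-coding genes. Of these markers, Nfatc1 had none in any library, Cd34, a marker of the sort itself, and Krt15 had none in Msx2-KO replicate 1, the shallowest library, and Lgr5 had none in Msx2-WT. Promoter peaks were found at 3, 0 and 0 of 5 markers of interfollicular and differentiated epidermis (Krt10, Ly6a and Ivl in Msx2-WT), at 3, 2 and 3 of 6 melanocyte markers (Dct and Pmel in all 3 libraries, Mitf not in the shallowest), at 1, 1 and 2 of 4 fibroblast markers (Pdgfra not in the shallowest, Col1a2 in both Msx2-KO libraries), at 0, 0 and 1 of 3 endothelial markers (Kdr) and at none of 5 leukocyte markers. Of the epidermis markers, the lists without the q-value limit also named Krt10 and Ivl in Msx2-KO replicate 2 and Lor in Msx2-WT. Ly6a, which encodes Sca-1, the marker that the sort excluded, was listed in Msx2-WT and in neither knockout library. The part of other cell types in the values below was not tested. The Msx2 promoter itself carried a peak in all 3 libraries, which does not check the labels, since the cassette lies downstream of the promoter.

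Almost all Krtap promoters were without a peak. A summit within 1500 bases of a start site was found at 3 of 57 Krtap genes in Msx2-WT (5.26%, 95% Wilson interval 1.81 to 14.4%), against 48.5% of all autosomal protein-coding genes. The share was 1 of 57 in Msx2-KO replicate 1 (1.75%, 0.310 to 9.29%), against 38.8% of all genes, and again 1 of 57 in Msx2-KO replicate 2, against 54.8%. These intervals cover counting error only, and neighbouring genes are not independent. No Krtap gene, 0 of 57, had a peak in both knockout libraries but not in Msx2-WT, which allows a share of up to 5.26%, against 2.22% of all genes. Krtap11-1 had a peak in all 3 libraries, a state shared by 36.2% of all genes. Krtap3-3 and Krtap16-1 had one in Msx2-WT alone, the state of 2.19% of all genes. The other 54 Krtap genes had none in any library, compared with 42.6% of all genes. No Krtap gene had its only peak in Msx2-KO replicate 1 (0.231% of all genes) or replicate 2 (6.44%), and none had one in Msx2-WT together with only replicate 2 (10% of all genes) or only replicate 1 (0.144%).

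**Figure D1:**
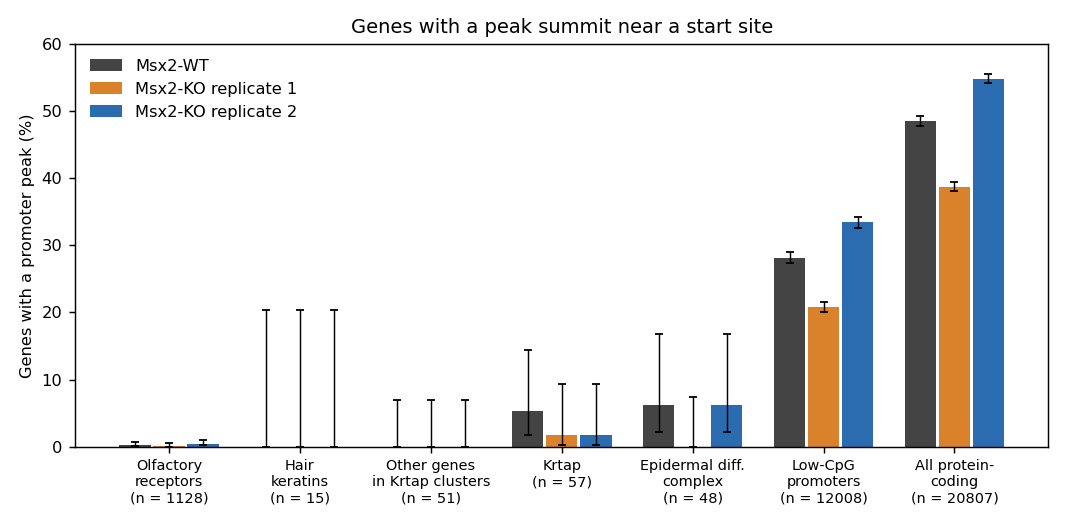
Percentage of genes with a peak summit within 1500 bases of a start site (vertical axis) in 7 gene groups, with n genes under each group and 1 bar for each library; whiskers are 95% Wilson intervals of counting error. Krtap genes stand at 5.26, 1.75 and 1.75%, hair keratins and the other genes inside the Krtap clusters at 0, and all protein-coding genes between 38.8 and 54.8%.

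Genes that act beside the Krtap genes in the shaft also had few promoter peaks. None of 15 hair keratin genes, whose products form the filaments that the Krtap proteins surround, had a promoter peak in any library, which allows up to 20% in each. The 51 other protein-coding genes that lie inside the 5 clusters likewise had 0 in each library, which allows up to 5.88%. They were told from Krtap genes by symbol alone. Whether some are related genes under other symbols was not checked, so they are no independent comparison group. In the epidermal differentiation complex, which holds genes of the cornified envelope, the counts were 3, 0 and 3 of 48. Olfactory receptor genes, a large clustered family best known from the nose, had 2, 1 and 5 peaks among 1128 genes (0.177, 0.0887 and 0.443%). The Krtap share in each library stood between that of olfactory receptors and that of all genes. In each knockout library it rests on 1 gene, and its interval overlaps that of olfactory receptors (0.01565 to 0.5005% and 0.1895 to 1.033%). The order of those sets is therefore within counting error there.

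Genes for regulators of the shaft had promoter peaks about as often as all genes. Of 13 such genes, 7, 7 and 8 had a promoter peak, against 48.5, 38.8 and 54.8% of all genes, and 6 had one in all 3 libraries, against 36.2%. Those 6 were Hoxc13, a homeobox factor of hair keratin genes, Gata3, a factor of the inner root sheath, Msx2, Sox21, a factor of the hair shaft cuticle, the BMP receptor gene Bmpr1a and Ctnnb1, which encodes beta-catenin. The state differed between libraries at Lef1, the Wnt effector of the cortex, which had a peak in Msx2-KO replicate 2 alone, at Msx1, which had one in both Msx2-KO libraries, and at Prdm1, which had one in Msx2-WT alone. In the deposited lists without the q-value limit, Lef1 and Msx1 were also listed in Msx2-WT and Prdm1 in Msx2-KO replicate 2. Foxn1, Dlx3, Cux1 and Foxq1 had no peak past the limit in any library.

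Krtap11-1 was the only Krtap gene with a promoter peak in every library. It encodes a high-sulfur protein of the cortex (ENSMUSG00000091212.1, chr16:89570176-89571183, minus strand, coding sequence chr16:89570581-89571129). It is the last gene of the chromosome 16 cluster. The peak covered 849, 834 and 1105 bases, beginning at 89570305, 89570325 and 89570220. Its called summit stood in the coding exon, 356, 234 and 352 bases downstream of the start in the order of the libraries. The authors set a shift and an extension of tags, and the sign of the shift is not given. The offset from the start is therefore coarse, and where the chromatin was most open is not settled by it. The summits of Msx2-WT (89570827) and Msx2-KO replicate 2 (89570831) were almost at the same base. The genomic sequence around the Msx2-WT summit is shown because the summit was called there (GRCm38, minus strand, chr16:89570767-89570887, coding, no capitals).
Krtap11-1 summit: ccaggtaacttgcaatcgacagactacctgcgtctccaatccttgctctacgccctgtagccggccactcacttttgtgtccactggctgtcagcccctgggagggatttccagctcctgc
This stretch was 57.9% G+C and held 4 CpG. The 250 bases before the start are given for comparison, with capitals at matches to the words searched below (GRCm38, minus strand, chr16:89571184-89571433).
Krtap11-1 promoter: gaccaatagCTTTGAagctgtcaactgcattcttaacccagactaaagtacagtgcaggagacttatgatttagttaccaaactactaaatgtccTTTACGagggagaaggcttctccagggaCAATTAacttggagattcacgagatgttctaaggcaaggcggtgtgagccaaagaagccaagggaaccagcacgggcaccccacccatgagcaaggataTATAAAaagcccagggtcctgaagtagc
That promoter was 46.8% G+C and also held 4 CpG.

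At the Krtap11-1 summit the wild-type library had 38 tags (95% Poisson interval 26.9 to 52.2), the first knockout library 14 (7.65 to 23.5) and the second 43 (31.1 to 57.9). Duplicate reads were kept by the authors, so tags are not independent molecules and these intervals cover counting error only. Divided by the background of each library, the tag numbers became 21.9 (15.5 to 30.0), 29.4 (16.1 to 49.4) and 54.4 (39.4 to 73.3). On this scale the value of Msx2-KO replicate 1 overlapped both others within counting error, whereas that of Msx2-KO replicate 2 was above that of Msx2-WT. The median summit at promoters of all genes moved in the same order between the genotypes, from 12.7 in the wild type to 25.2 and 24.1 in the knockouts, so the scale itself differed between libraries. By rank of -log10 q among promoter summits of its own library, the Krtap11-1 peak stood at percentiles 78.7, 53.3 and 87.2. The wild-type rank lay between those of the 2 knockout libraries, so no direction with genotype was seen by rank at this gene. Its -log10 q was 22.3, 7.25 and 28.1. In bulk cells a site open in few of them cannot be told apart from one that is weakly open in all.

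Krtap3-3 and Krtap16-1, both on chromosome 11, passed the limit in Msx2-WT alone and only narrowly. At Krtap3-3, a high-sulfur gene at the left end of the cluster (ENSMUSG00000069722.4, chr11:99550130-99550865, minus strand), the summit at 99549682 held 9 tags (4.12 to 17.1), the lowest number that could pass in this library, with a -log10 q of 2.31. It lay 1183 bases downstream of the start, past the 3′ end of the gene. At Krtap16-1 (ENSMUSG00000078253.3, chr11:99984710-99986597, minus strand), the summit at 99986071 held 10 tags (4.80 to 18.4), with a -log10 q of 3.04, and stood in the coding exon 526 bases downstream of the start. Neither Msx2-KO list names a peak there at any level. Msx2-WT was the deepest library, and at 5.18 and 5.75 times the background these summits were below the median promoter summit of 12.7. With lists of equal length, or with a -log10 q of at least 5, neither gene kept its peak. The promoter sequences are shown because the words they hold differ between genes in the same state (GRCm38, minus strand, chr11:99550866-99551115 and chr11:99986598-99986847, capitals as above).
Krtap3-3 promoter: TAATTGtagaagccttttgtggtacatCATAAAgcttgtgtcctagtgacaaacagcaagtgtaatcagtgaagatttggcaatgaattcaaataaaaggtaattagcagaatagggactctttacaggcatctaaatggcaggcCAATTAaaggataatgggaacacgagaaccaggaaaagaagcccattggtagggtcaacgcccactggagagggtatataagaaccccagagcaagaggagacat
Krtap16-1 promoter: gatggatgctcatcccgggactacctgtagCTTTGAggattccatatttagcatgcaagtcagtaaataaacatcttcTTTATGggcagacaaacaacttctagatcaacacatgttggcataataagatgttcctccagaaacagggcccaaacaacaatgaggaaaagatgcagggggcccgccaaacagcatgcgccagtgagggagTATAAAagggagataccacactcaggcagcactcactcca
The first was 41.6% G+C with 2 CpG and the second 46.4% with 3 CpG.

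Below the q-value limit, the lists named a few more Krtap promoters, each with few tags. In Msx2-WT these were Krtap5-5, Krtap19-5, Krtap19-9b and Krtap6-3, with 5 or 6 tags each, which made 7 of 57 genes (12.3%) at any level. In Msx2-KO replicate 1 the peak of Krtap22-2 held 4 tags and made 2 of 57 (3.51%). In Msx2-KO replicate 2 those of Krtap5-2, Krtap17-1 and Krtap6-3 held 4, 5 and 3 tags and made 4 of 57 (7.02%). Olfactory receptors reached 13.4, 1.24 and 5.94% in the same lists, and all genes 60.4, 46.2 and 63.0%. Krtap6-3, a gene of a glycine and tyrosine rich family, was the only one of these that 2 libraries named, on opposite sides of its first start (1.43 kb downstream in Msx2-WT and 1.32 kb upstream in the other library). The largest families had no peak past the limit in any library, with 8 genes in family 4, 6 in family 19, 5 in family 5 and 4 in family 6.

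Over their whole length, genes included, the clusters were also poor in peaks. The counts below include the summit of Krtap11-1 in every library and that of Krtap16-1 in Msx2-WT. The 5 clusters span 1.671 Mb and held 6, 3 and 6 summits past the limit. This came to 3.59 per Mb (95% Poisson interval 1.32 to 7.81), 1.80 per Mb (0.370 to 5.25) and 3.59 per Mb, against 13.4, 7.68 and 16.3 per Mb of all autosomes. Each interval ended below the autosomal level of its own library. Counting every deposited summit gave 33, 7 and 25, or 19.7, 4.19 and 15.0 per Mb, against 41.8, 14.2 and 32.6. The clusters on chromosomes 1 and 10 held no listed summit at any level in any library. They are short, and a count of 0 there allows up to 147.1 and 25.7 per Mb. Both values exceed the autosomal level past the limit in every library, so these clusters cannot be told apart from it. Against every deposited summit, only chromosome 10 fell below the autosomes, in Msx2-WT and Msx2-KO replicate 2. The longest stretch of the chromosome 16 cluster without a summit past the limit was 798.5, 916.2 and 852.6 kb. On chromosome 11 it was 419.7 kb in each library. Below the limit the clusters and their promoter windows held 27 further summits of 5 to 8 tags, 4 of 3 or 4 tags and 20 of 3 to 5 tags.

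**Figure D2:**
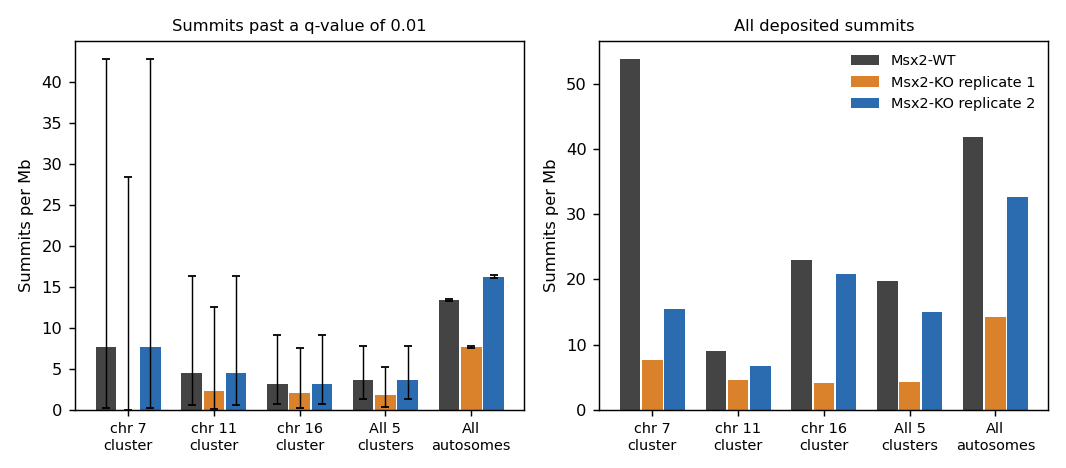
Summits per Mb (vertical axes) in the clusters of chromosomes 7, 11 and 16, in all 5 clusters together and in all autosomes, for summits past a q-value of 0.01 on the left, with 95% Poisson intervals as whiskers, and for every deposited summit on the right. Bars are the 3 libraries. Past the limit the 5 clusters together stand at 3.59, 1.80 and 3.59 per Mb, and the autosomes at 13.4, 7.68 and 16.3 per Mb.

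**Figure D3:**
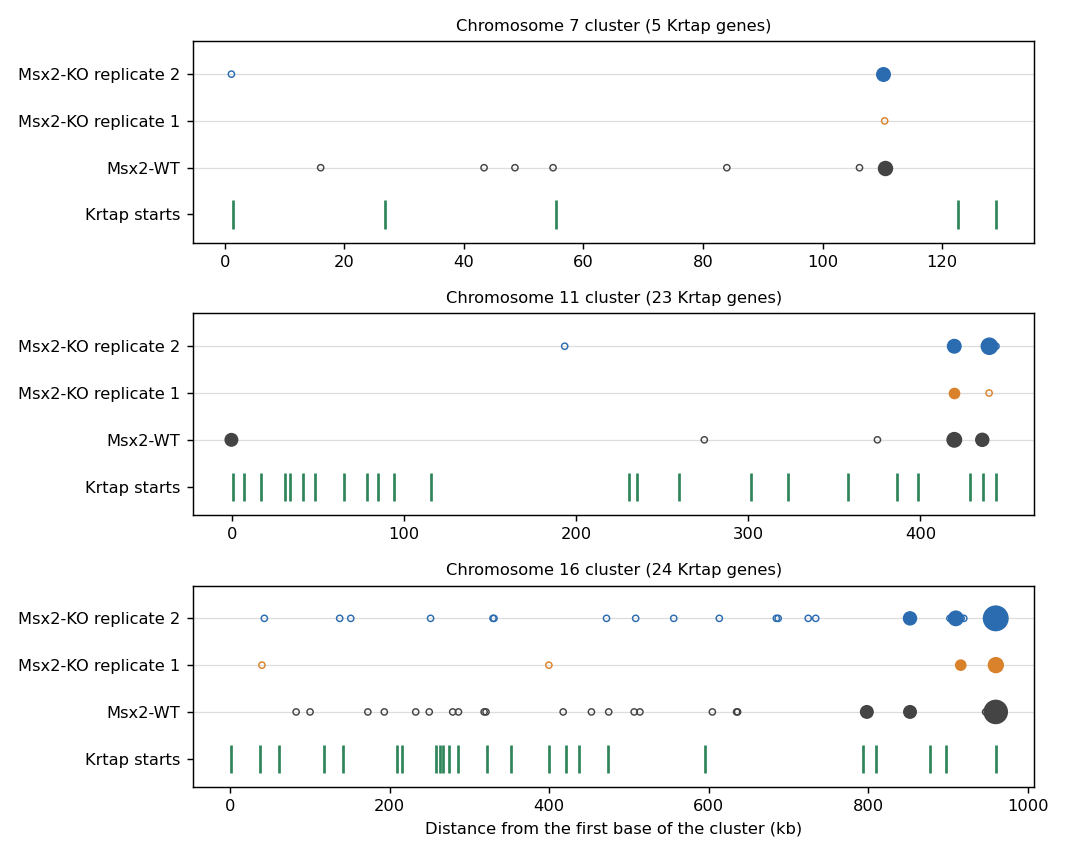
Positions of Krtap start sites (ticks) and of listed summits in each library along the clusters of chromosomes 7, 11 and 16, in kb from the first base of each cluster; filled circles passed a q-value of 0.01 and grow with the tag number, and open circles did not pass it. Filled circles stand near the ends of the clusters, and the largest, on chromosome 16, are the peak of Krtap11-1 with 38, 14 and 43 tags.

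Peaks past the limit in and beside the clusters fell into 10 regions, of which 2 were shared by all 3 libraries, 2 by 2 libraries and 6 belonged to 1 library each. The same shares over all autosomal regions were not computed, and the lists differ in length. These counts therefore describe the regions and do not set the clusters apart from the genome. The region shared by all beside Krtap11-1 lay between Krtap9-5 and Krtap29-1 (chr11:99969417-99970880, intergenic), 9.26 kb downstream of the Krtap29-1 start by the summit of Msx2-KO replicate 2. It held 13, 5 and 11 tags, with -log10 q values of 5.46, 2.32 and 5.92. Over background these were 7.48 (3.98 to 12.8), 10.5 (3.41 to 24.5) and 13.9 (6.95 to 24.9), and the 3 intervals overlapped. Its sequence around the Msx2-WT summit is shown as the one intergenic region of these clusters that every library shared (GRCm38, plus strand, chr11:99969712-99969912, capitals marking the reverse complement of TAATTG).
Shared chromosome 11 region: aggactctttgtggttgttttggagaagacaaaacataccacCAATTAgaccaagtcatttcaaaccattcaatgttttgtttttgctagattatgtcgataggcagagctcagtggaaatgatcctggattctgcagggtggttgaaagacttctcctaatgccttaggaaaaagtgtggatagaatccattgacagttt
This window was 39.3% G+C with 1 CpG, compared with a median of 51.2 to 53.2% over all autosomal summits of the 3 libraries, of which 5.13 to 7.87% held TAATTG in a window of the same length. Those summits include promoter summits, and no set of intergenic summits or of summits of like G+C was compared.

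The other regions passed the limit in fewer libraries. On chromosome 7, a region in an intron of Gm45889, 12.5 kb downstream of the start of the ultra-high sulfur gene Krtap5-1 (chr7:142283919-142285436), held 12 tags in Msx2-WT and 11 in Msx2-KO replicate 2, with -log10 q values of 4.62 and 7.54. It was also listed in Msx2-KO replicate 1, with 4 tags and a -log10 q of 1.37, below the limit. On chromosome 16, a region 24.6 kb downstream of the start of Krtap8-1 (chr16:89462930-89463635) held 9 tags in Msx2-WT and 10 in Msx2-KO replicate 2, but was not listed in Msx2-KO replicate 1. The strongest region outside Krtap11-1 in any library stood 3.58 kb upstream of Krtap16-1 (chr11:99989877-99990488) in Msx2-KO replicate 2, with 17 tags (9.90 to 27.2) and a -log10 q of 11.25. Msx2-KO replicate 1 listed it with 4 tags, below the limit, and Msx2-WT did not list it. It was the only region of the 10 that both Msx2-KO libraries listed and Msx2-WT, the deepest library, did not, with genotype and batch as above. How often regions over all autosomes were listed in this way was not computed.

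Regions found in 1 library came from each of them. In Msx2-KO replicate 2 a summit 12.45 kb upstream of Krtap7-1, a gene of a glycine and tyrosine rich family, held 13 tags with a -log10 q of 8.28. In Msx2-KO replicate 1 a summit 18.6 kb upstream of the same gene held 5 tags with a -log10 q of 2.32, the lowest tag number that could pass. Close to it, Msx2-KO replicate 2 listed a peak below the limit that did not overlap, with 4 tags and a summit 19.1 kb upstream of that gene. In Msx2-WT a summit 5.32 kb upstream of Krtap21-1 held 9 tags with a -log10 q of 2.31. All 5 regions on chromosome 16 lay within 162 kb of the end of the cluster that holds Krtap11-1. Whether accessibility in that end differs from the rest of the cluster was not tested.

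**Figure D4:**
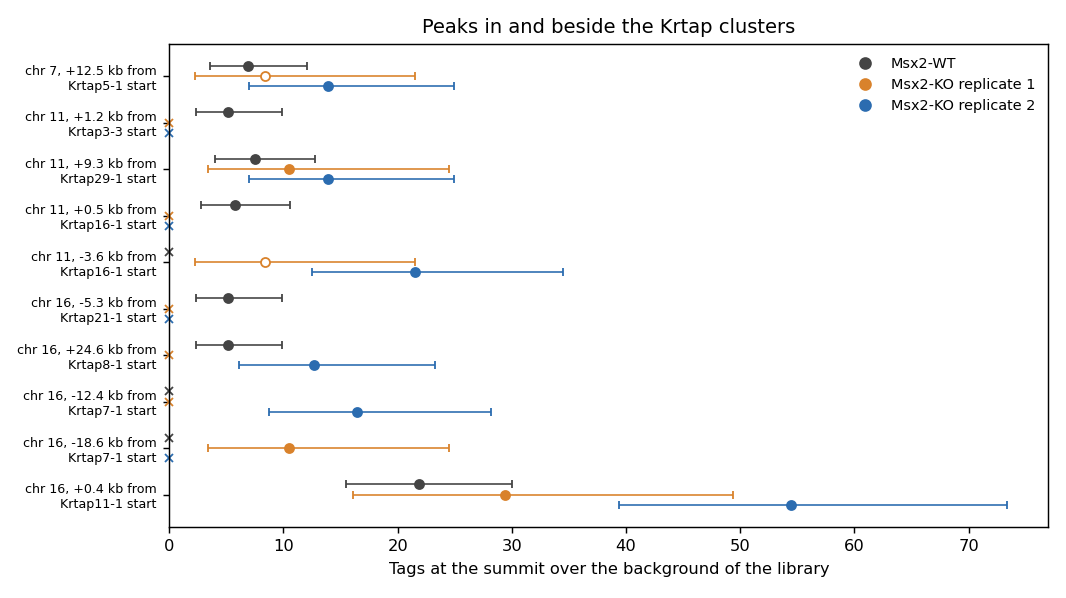
Tags at the summit over the background of the library (horizontal axis) for the 10 regions in and beside the Krtap clusters, named by distance to the nearest Krtap start (plus is downstream). Filled circles passed a q-value of 0.01, open circles did not, crosses at 0 mark a library that did not list the region, and lines are 95% Poisson intervals. The peak of Krtap11-1 is the highest in every library, at 21.9, 29.4 and 54.4.

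Distance from each start to the nearest summit past the limit needs no window, and its median again placed Krtap genes between all genes and olfactory receptors. Hair keratins, none of which had a promoter peak, stood nearer to a summit than Krtap genes by the median. The median for Krtap genes was 67.6, 118.2 and 112.2 kb, compared with 3.66, 15.1 and 0.913 kb for all genes. It was shorter for hair keratins (8.63, 54.9 and 17.6 kb) and longer for olfactory receptors (200.2, 239.6 and 201.9 kb). A summit stood within 10 kb of the start for 8, 2 and 5 of 57 Krtap genes, compared with 57.7, 45.8 and 63.5% of all genes. None stood within 100 kb for 21, 34 and 29 of them, compared with 14.3, 19.4 and 12.1% of all genes. The farthest gene of each library lay in the middle of the chromosome 16 cluster, at 398.4 kb for Krtap22-2 in Msx2-WT, 467.7 kb for Krtap6-5 in Msx2-KO replicate 1 and 431.6 kb for Krtap6-1 in Msx2-KO replicate 2. By cluster, the median distance ranged from 14.7 kb on chromosome 1 to 243.0 kb on chromosome 16 in Msx2-WT. The 3 genes of chromosome 10, families 10 and 12, stood between 28.5 and 54.2 kb from a summit over all libraries. On chromosome 11 the median was 48.4, 117.2 and 114.9 kb, and the nearest summit of the genes at the left end in Msx2-WT was the 9-tag summit beside Krtap3-3. At Krtap1-5, for example, the distance was 31.3, 114.6 and 112.2 kb.

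**Figure D5:**
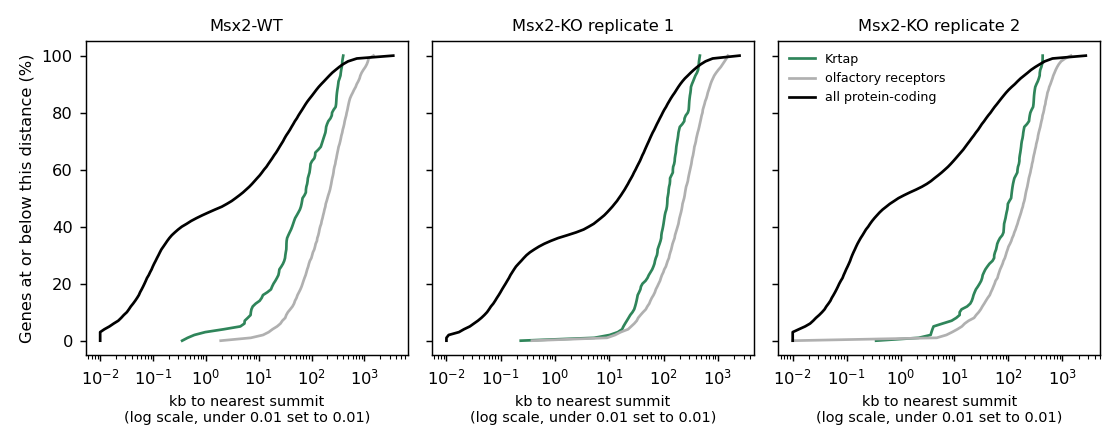
Cumulative percentage of genes (vertical axis) by distance from the start to the nearest summit past a q-value of 0.01 (horizontal axis, kb, log scale, distances under 0.01 kb drawn at 0.01), in 1 panel for each library. At their medians of 67.6, 118.2 and 112.2 kb, Krtap genes (green) lie between all protein-coding genes (black) and olfactory receptors (grey), and at the far right the green and black curves cross.

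Genes beside the clusters show where promoter peaks resume, although these neighbours too were told from Krtap genes by symbol alone. At chromosome 16 the nearest gene on both sides had a promoter peak in all 3 libraries, with the tight junction gene Cldn8 at 47.5 kb to the left and Tiam1, a Rac exchange factor gene, at 215.9 kb to the right. The chromosome 11 cluster had neighbours without a promoter peak, the hair keratins Krt40 at 6.97 kb and Krt33a at 17.2 kb. There the nearest gene with a promoter peak in all 3 libraries was the topoisomerase gene Top2a at 525.9 kb on the left and Krt14, a keratin of basal keratinocytes, at 209.2 kb on the right. Krt15, a keratin of bulge cells at 137.8 kb on the right, had a peak in every library but Msx2-KO replicate 1, and Krt10, a keratin of differentiated epidermis at 160.8 kb on the left, in Msx2-WT alone. Below the limit, Krt15 was also listed in Msx2-KO replicate 1 and Krt10 in Msx2-KO replicate 2. Beside the chromosome 7 cluster Gm4553 at 8.80 kb had none, and Ifitm10 at 21.2 kb on the other side had a peak in all 3 libraries. Slc19a3, a thiamine transporter gene 3.08 kb from the chromosome 1 cluster, had one in every library but Msx2-KO replicate 1, and Ccl20 at 54.8 kb in Msx2-KO replicate 2 alone. Gm10142 and Gm36176, the neighbours of the chromosome 10 cluster, had none.

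Promoters of the Krtap genes shared features of sequence that the choice by symbol did not use. In the 250 bases before the start, the median G+C was 40.8%, ranging from 30.4 to 53.6%, compared with 54.4% for all protein-coding genes. They held a median of 1 CpG and at most 6, compared with a median of 8, and all 57 fell below an observed over expected CpG of 0.6, compared with 57.7% of all genes. Among the 12008 genes with such low-CpG promoters, 28.2, 20.8 and 33.4% had a promoter peak in the 3 libraries, which is below all genes and above the Krtap genes.

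The words TATAAA (the TATA box), TAATTG (a core bound by Msx and Dlx homeodomains), TTTATG and TTTACG (cores of Hox group 13 homeodomains) and CTTTGA (a core of TCF/LEF factors) were searched on both strands of these 250 bases. TATAAA was found in 46 of 57 Krtap promoters (80.7%, 95% Wilson interval 68.7 to 88.9%), compared with 11.6% of all promoters and 16.3% of low-CpG promoters. On the strand of the gene and with its first base 40 to 20 bases before the start, it was found in 32 of 57 (56.1%), compared with 2.47 and 3.68%. TAATTG was found in 18 (31.6%), compared with 7.25% of all promoters and 9.88% of low-CpG promoters, and TTTATG in 17 (29.8%), compared with 9.64 and 12.9%. CTTTGA was found in 13 (22.8%), compared with 13.4 and 16.6%, and TTTACG in 2 (3.51%), compared with 2.75 and 1.84%. The promoters compared differ in G+C, family members share ancestry, and a word match is no binding site. Only exact words were counted, so variants of the TATA box or of the other cores were missed.

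TATAAA was held by Krtap genes with a promoter peak and by genes without one. Krtap11-1, with a peak in every library, held TATAAA at position -28 from the start, TTTACG at -155, CTTTGA at -241 and TAATTG on the other strand at -127. In the promoter of Krtap8-1, a gene without a promoter peak in the same cluster and from a glycine and tyrosine rich family, TATAAA at -29 was the only match, and it is shown for that contrast (GRCm38, minus strand, chr16:89487953-89488202, capitals as above).
Krtap8-1 promoter: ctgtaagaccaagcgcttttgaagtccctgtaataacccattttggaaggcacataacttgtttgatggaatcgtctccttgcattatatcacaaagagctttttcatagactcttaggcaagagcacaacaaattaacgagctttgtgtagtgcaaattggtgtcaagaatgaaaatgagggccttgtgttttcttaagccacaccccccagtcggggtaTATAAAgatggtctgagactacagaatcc
It held 41.6% G+C, with 4 CpG. Of the genes with a peak in Msx2-WT alone, Krtap16-1 held TATAAA at -40, whereas Krtap3-3 held no exact match to it. The Krtap3-3 promoter printed above does hold the similar stretch tatataag near its start, so it cannot be said to lack a TATA box.

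Near-identical copies among Krtap genes could hide or share reads, so the words of 50 bases within 1500 bases of each start were counted over the genome. A median of 95.3% of these words occurred once, ranging from 44.3% at Krtap4-13 to 100%, compared with a median of 96.7% for hair keratins and 97.8% for olfactory receptors. Krtap4-13 was the only gene under 50%, and 39 of 57 reached 90%. The next lowest were Krtap31-1 (76.2%) and the ultra-high sulfur genes Krtap5-2 (68.2%), Krtap5-1 (77.4%) and Krtap5-3 (78.4%), and absence of a peak is less certain at these 5 genes than at those near 100%. Of the genes with a promoter peak past the limit, Krtap11-1 and Krtap16-1 reached 100% and Krtap3-3 90.2%.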

How the data were processed

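Omni-ATAC-seq peak lists of 1 Msx2-WT and 2 Msx2-KO libraries were analysed, grouped by the labels. Per the study's methods and processing notes, the authors used Trimmomatic for trimming, BWA-MEM for alignment to GRCm38 and MACS2 for peaks of each library, within Partek Flow. Mitochondrial reads were excluded, no shifting model was built, a shift size and an extension size of tags were set, and duplicates were kept. The sign of the shift is not given, so whether tags were centred on the Tn5 cut is not known. The MACS2 version is not given in the sources used here. Extended tags place a summit only coarsely. The deposited fold enrichment, −log10 p and −log10 q belong to each summit in its own library, and the deposited summit offset places it. The deposited score column was not used.

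The methods name a q-value of 0.01, whereas the lists reach down to a p-value of 0.01, and 32.2, 53.3 and 49.3% of the 104376, 36494 and 83318 summits had a −log10 q above 2.0, the limit used. Mitochondrial summits were left out, chromosomes 1 to 19, X and Y were kept, and Krtap genes were counted on autosomes. No Krtap gene lay on X or Y, and 1 Krtap symbol that is not protein-coding was left out. The tag number at each summit is the whole number that gives both its deposited fold and its −log10 p (found for at least 99.9% of summits, within 0.0002 in −log10 p). The solution was tested on simulated data.

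A promoter peak was a summit within 1500 bases of any protein-coding transcript start of the basic set of GENCODE M21. A cluster was a run of Krtap genes with gaps of at most 500000 bases between starts. Promoter sequence was 250 bases before the start, read from the RefSeq copy of GRCm38. RefSeq promoters were found for 51 of the 57 genes, 46 of them at the same start within 50 bases. No table of proteins was used here, so the planned classes by amino acid content were not made.

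Krtap genes with a promoter peak, the neighbours of each cluster, list members that differed between libraries, Msx2 and the 3 strongest cluster peaks of each library were named. Other Krtap genes named for a peak below the limit, distance, promoter sequence or repeated words were chosen after their values were seen. Members and lists were chosen with earlier results of these data known. Shares carry 95% Wilson intervals and counts 95% Poisson intervals, and a count of 0 was read against a floor of 3 counts, all for counting error only. Other settings were every deposited peak, lists of equal length (19450 summits), a −log10 q of at least 5, windows of 500 and 3000 bases, peaks placed by overlap, the outer start alone, clusters widened by 50000 bases, and leaving out each Msx2-KO library. Software was matplotlib 3.10.9, numba 0.67.0, scipy 1.17.1, pandas 2.3.3 and numpy 2.4.6 under Python 3.11.15.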

Additional observations from a re-analysis of the deposited data

How the results depend on the processing

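Krtap11-1 had a promoter peak in every library under each setting tried, and under none did a Krtap gene have one in both knockout libraries but not in Msx2-WT. The Msx2-WT share of Krtap promoters fell from 5.26% to 1.75% with a −log10 q of at least 5, with lists of equal length and with a window of 500 bases, while that of all genes fell from 48.5% to 40.2, 40.5 and 45.6%. In these settings 0 Krtap genes had a peak in Msx2-WT alone, compared with 5 among every deposited peak. The share of all genes in this state was computed at the main setting only, at 2.19%. The same holds for a peak in both knockout libraries but not in Msx2-WT, at 2.22%. Whether the Krtap counts under other settings depart from all genes is therefore not known. Summits per Mb of the clusters in Msx2-WT went from 3.59 to 1.20 with a −log10 q of at least 5 and with lists of equal length (autosomes 13.4 to 7.64 and 7.77), to 19.7 with every deposited peak (autosomes 41.8) and to 9.67 with clusters widened by 50000 bases (autosomes 13.4). In Msx2-KO replicate 2 they went from 3.59 to 15.0 with every deposited peak (autosomes 32.6) and to 8.29 with widened clusters (autosomes 16.3). The widened clusters take in neighbouring genes. The other 39 values of alternatives stayed within the error of the main value or within 1.5 times the main count. At such low counts that error is wide, so large shifts also stayed within it. In Msx2-KO replicate 1, summits per Mb went from 1.80 to 0.598 with a −log10 q of at least 5 (autosomes 3.71). They went to 5.07 with widened clusters (autosomes 7.68). Leaving out each Msx2-KO library left 0 Krtap genes with a peak in Msx2-KO and not in Msx2-WT and 2 with the opposite state. Among all genes, the first state joins shares of 2.22 and 6.44% when replicate 2 is kept, and 2.22 and 0.231% when replicate 1 is kept. The opposite state joins shares of 2.19 and 0.144% when replicate 2 is kept, and 2.19 and 10% when replicate 1 is kept. No paired analysis was possible because there was 1 Msx2-WT library and the groups share only 1 replicate number. At this depth, a site needed 9, 5 and 6 tags to pass, so weaker openness at the Krtap promoters without a peak could not be called. Absence of a peak does not show that a promoter was closed.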
